A study of Mus musculus with 10 samples.

Results

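Heat shock proteins and co-chaperones were taken as the genes of the expression table whose symbols begin with Hspa, Hspb, Hspd, Hspe, Hsph or Hsp90, belong to the Dnaja, Dnajb or Dnajc families, are 1 of the BAG genes Bag1 to Bag6 or a numbered Cct subunit, or are Cryab, Hsf1, Hsf2, Tcp1, St13 or Stip1. This gave 79 of the 12575 genes in the table. The study asked what loss of the clock factor BMAL1 in astrocytes does to the cortical transcriptome. RNA of cerebral cortex was sequenced from BMAL1 aKO mice (Aldh1l1-CreERT2;Bmal1 fl/fl, genotype Cre_Positive, n = 5) and from Cre- littermates (Bmal1 fl/fl without Cre, genotype Cre_Negative, n = 5), all on C57BL/6, of mixed sex and 4 months old by the labels. The study's text instead gives 5 months of age for the sequenced mice, some months after tamoxifen. Mice of both groups carried the floxed allele and were given tamoxifen by oral gavage, so the groups differ in the Cre transgene and in the deletion it makes. The Aldh1l1 promoter drives the Cre in astrocytes, while the RNA came from whole cortical tissue, and neurons and other cells keep BMAL1. Arntl, which encodes BMAL1, averaged 34.5 ± 2.93 CPM (read counts scaled to the size of the library) in BMAL1 aKO cortices and 34.2 ± 2.25 CPM in Cre- cortices (SD, n = 5 each), so the deletion cannot be checked at this level.

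Chaperones hold unfolded proteins and help them fold, and they work as a relay. Hsp70 proteins bind exposed stretches of a client in a cycle driven by ATP. J-domain proteins of the Dnaj families bring the client and start the cycle, and nucleotide exchange factors (the BAG proteins and the Hsp110 proteins) end it. HOP (Stip1) hands clients on to Hsp90, small heat shock proteins keep aggregating clients soluble, and the ring-shaped CCT complex folds actin and tubulin. BAG3 couples Hsp70 to the small heat shock protein HSPB8 and steers misfolded clients to autophagy, whereas BAG1 steers them to the proteasome. Many of these genes are switched on by HSF1 through heat shock elements, which are inverted repeats of the letters GAA.

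Across the 10 libraries Bag3 was the only chaperone gene called different, and it rose in BMAL1 aKO cortices (log2 fold change 0.66, SE 0.13; 1.58-fold, 95% interval 1.29 to 1.92; limma adjusted p = 0.0895). Its partner Hspb8 was not called (log2 fold change 0.08, SE 0.19, limma adjusted p = 0.847). The call rested on the weighting of libraries: without sample quality weights the log2 fold change of Bag3 was 0.56 and the limma adjusted p was 0.803. A gene was called at a Benjamini-Hochberg adjusted p of at most 0.1 over 12573 tested genes, and all 79 members were tested. At this threshold 1 member was called higher in BMAL1 aKO and 0 lower, against a background of 0.334% of all genes in either direction, 0.286% higher and 0.0477% lower. At an unadjusted p below 0.05, limma gave 16 members, 4 higher and 12 lower in BMAL1 aKO. These are 20.3% of the members, against 16.8% of all genes tested, of which 6.82% were higher and 10.0% lower. Both shares depended on the fit, and the members did not exceed all genes in several others. Members and all genes were at 3.80% and 4.79% without sample quality weights and at 15.2% and 15.3% with TMM scaling. With voomWithQualityWeights they were at 10.1% and 10.4%. After Bag3 the lowest adjusted p of a member was 0.176, so the values of all other members below are descriptions of genes that did not pass the test.

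The fold changes of the members were small. Their median log2 fold change was -0.06, against -0.04 over all genes tested, and 53 of the 79 (67.1%) lay below 0, against 61.6% of all genes. In the weighted fit, the 95% interval of 72 members lay within 0.5 of 0 on the log2 scale. No member had groups that did not overlap, against 0.620% of all genes that lay wholly higher in BMAL1 aKO and 0.382% wholly lower. The median moved to 0.01 without weights, where 41 of 79 members lay above 0, and to -0.02 with TMM scaling.

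**Figure D1:**
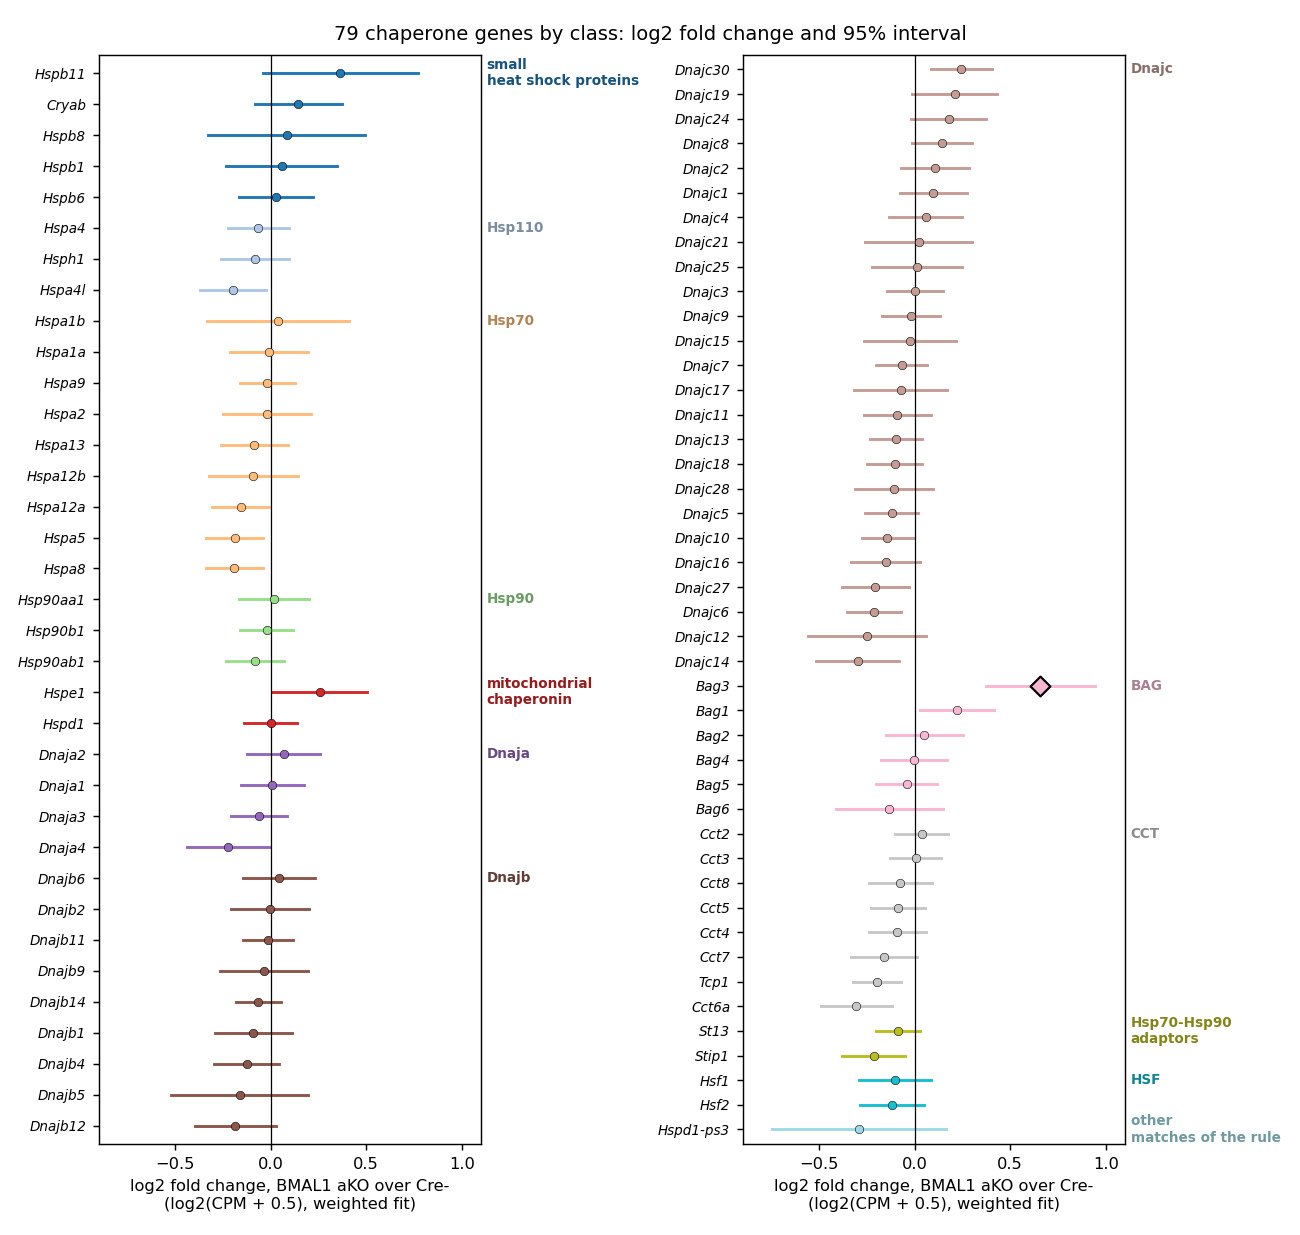
Log2 fold change, BMAL1 aKO over Cre-, of each of the 79 chaperone genes (points) with its 95% interval (lines), grouped by class; the diamond marks adjusted p at or below 0.1. Bag3 at 0.66 is the only diamond, and most other intervals include 0.

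The libraries held 21844770 to 48295715 reads, and replicates of a group differed by more than counting noise (chi-square per degree of freedom 12.9 to 448), so the spread between libraries and not depth set the errors. Cre- replicates 2, 3 and 4 stood apart. In replicates 3 and 4 mitochondrial genes took 6.19% and 9.29% of their CPM, against 13.4% to 19.9% in the other 8 libraries. Cre- replicate 3 was the lowest of the 10 libraries for 33 members and the highest for 17, together 63.3% of the members and 60.6% of all genes, and it had the lowest weight in the fit (0.181, against 7.19 for Cre- replicate 1). Cre- replicate 2, with the fewest reads and the highest mitochondrial share (19.9%), was the lowest of the 10 for 16 members and the highest for 17, together 41.8% of the members and 36.8% of all genes. The median distance of a gene from its group was 0.31, 0.36 and 0.19 on the log2 scale in Cre- replicates 2, 3 and 4, against 0.11 to 0.17 in the other libraries. The Y-linked gene Ddx3y was below 1 CPM in 2 libraries of each group, BMAL1 aKO replicates 1 and 4 and Cre- replicates 2 and 3. Those Cre- libraries had weights of 0.454 and 0.181 in the fit, and Ddx3y had a log2 fold change of -1.74 in the weighted fit (limma adjusted p = 0.515) and of 0.16 without weights. Summed levels of 10 immediate early genes, which mark recent neuronal activity, were 623 to 955 CPM in BMAL1 aKO and 833 to 2071 CPM in Cre-, with 1336, 2071 and 1339 CPM in Cre- replicates 3, 4 and 5. None of those 10 genes was called. Of 10 astrocyte markers 1 was called, the gap junction gene Gja1 (log2 fold change 0.44, limma adjusted p = 0.0273), and their sum was 6795 to 8359 CPM in BMAL1 aKO and 5553 to 7130 CPM in Cre-. Most of that sum was Slc1a2, at a mean of 5259 CPM in BMAL1 aKO and 4541 CPM in Cre- (limma adjusted p = 0.298). Of the 10 markers, 8 had log2 fold changes above 0 and 2 below (Aldh1l1 -0.04, Aqp4 -0.20). The largest was that of Gfap, at 0.66 (limma adjusted p = 0.123), with means of 206 CPM in BMAL1 aKO and 122 CPM in Cre-. In bulk tissue, more astrocytes, more RNA per astrocyte and changes in single genes cannot be told apart.

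**Figure D2:**
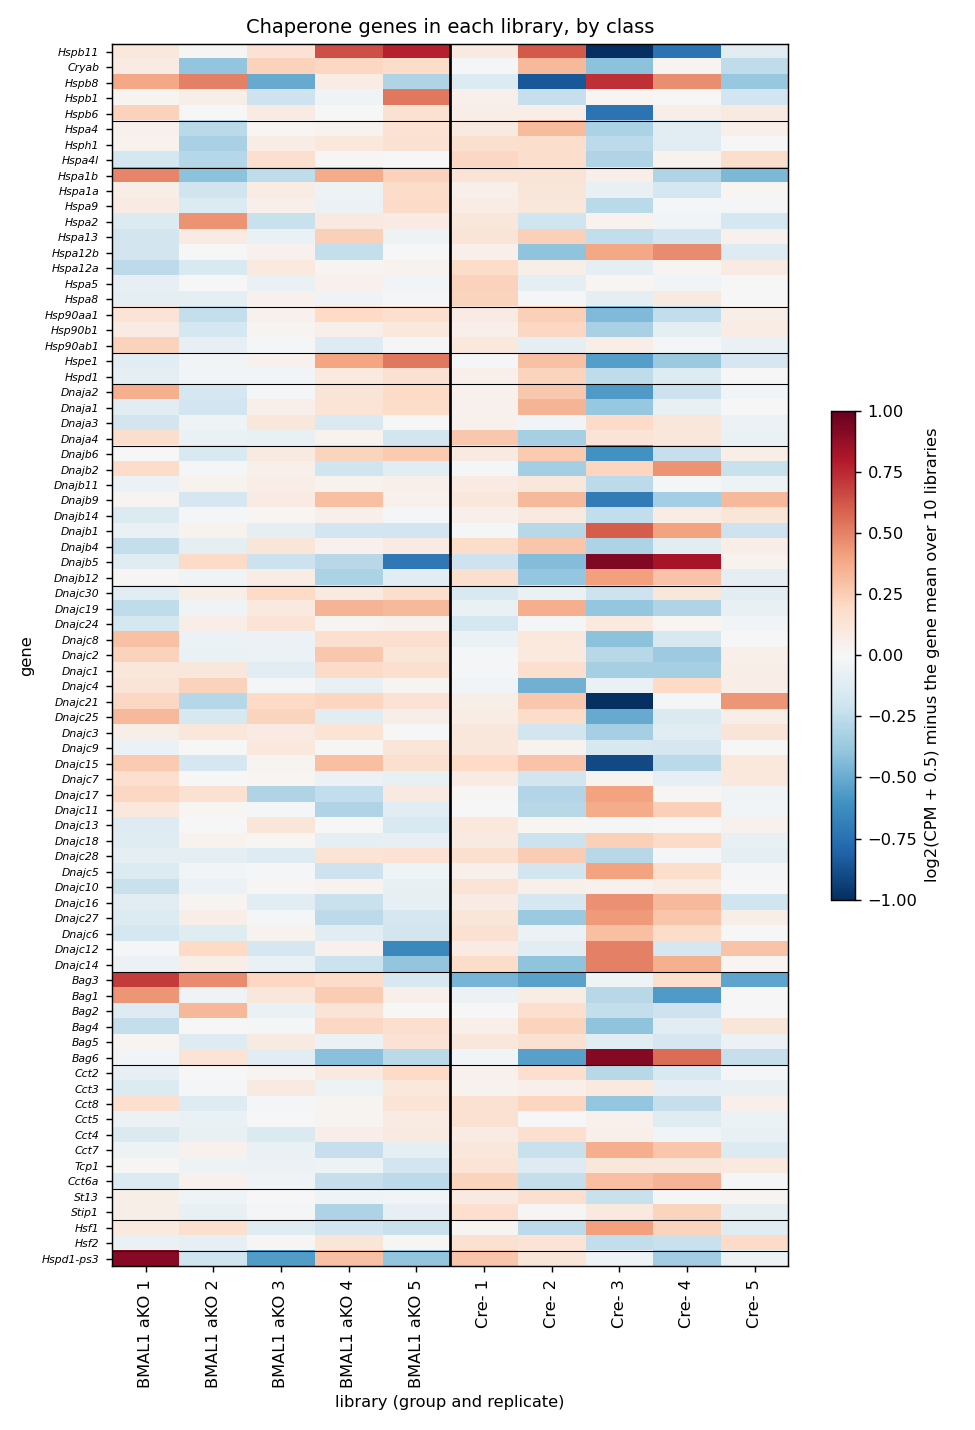
Level of each chaperone gene (rows, grouped by class) in each library (columns, BMAL1 aKO left of the line), as log2(CPM + 0.5) minus the mean of that gene over the 10 libraries; the colour scale ends at -1 and 1. Bag6 and Dnajb5 are high in Cre- replicates 3 and 4, and Bag3 is above its mean in BMAL1 aKO replicates 1 to 4 and in Cre- replicate 4.

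Since many chaperone genes carry heat shock elements, the start regions of the chaperone genes were searched for a pair of inverted GAA repeats (GAANNTTC or TTCNNGAA, each its own reverse complement, so both strands are covered; overlapping matches counted) and for the E-box CACGTG that BMAL1 binds with CLOCK. Promoter windows of 250 bases before to 50 bases after the start (RefSeq, GRCm38.p6) were matched for 62 of the 79 members. A heat shock pair stood in the windows of 18 of these (29.0%), against 13.6% of 9727 genes of the table and 17.0% of 27025 genes in all. The E-box stood in 7 of 62 (11.3%), against 11.8% and 8.09%, and neither the Bag3 nor the Hspb8 window held it. The windows shown are those of Bag3, Hspb8 and the stress-inducible small heat shock protein Hspb1, of the inducible Hsp70 gene Hspa1a, and of Cct6a, the member with the lowest adjusted p after Bag3. Capitals mark the matched letters, and 30 bases are given 5′ to 3′ on the gene's strand:
Bag3, chr7:128523603-128523632, plus strand: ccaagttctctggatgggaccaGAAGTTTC
Hspb8, chr5:116422844-116422873, minus strand: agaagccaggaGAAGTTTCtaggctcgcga
Hspb1, chr5:135887791-135887820, plus strand: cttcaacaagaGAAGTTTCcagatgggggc
Hspa1a, chr17:34972242-34972271, minus strand: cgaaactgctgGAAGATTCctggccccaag
Cct6a, chr5:129787369-129787398, plus strand: gcgtaagacttTTCGAGAAgaccccgcaga
Bag3, Hspb8 and Hspb1 share the same 8 letters, which begin at +43 and +3 from the start in Bag3 and Hspb8 and at -117 in Hspb1. The Hspa1b window holds the same 30 bases as that of Hspa1a. A match describes letters and does not show that a factor binds there.

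The BAG family showed the widest range of fold changes, and Bag3 (chromosome 7, 128523616 to 128546981, plus strand, GRCm38) led it. In replicate order, Bag3 had 19.2, 16.3, 13.5, 13.2 and 10.4 CPM in the BMAL1 aKO libraries, against 8.26, 7.87, 11.3, 13.1 and 7.89 CPM in the Cre- libraries. All 5 BMAL1 aKO libraries lay above the median of the Cre- group, but the groups overlapped, because BMAL1 aKO replicate 5 lay below Cre- replicates 3 and 4. The exact two-sided permutation test of the mean log2 value gave p = 0.0397 for Bag3, where 252 arrangements allow no p below 0.00794. This value is for the single gene and is not adjusted for the 79 members, among which Bag3 had the lowest limma p. No exon of Bag3 overlaps a gene on the other strand, which matters because the library kit does not mark strand.

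With TMM scaling Bag3 had a log2 fold change of 0.71 (limma adjusted p = 0.0282), and with voomWithQualityWeights on recovered reads 0.75 (limma adjusted p = 0.0866). It was again the 1 member called, against 0.541% and 0.231% of all genes in those fits. Leaving out each library in turn gave log2 fold changes of 0.52 to 0.78 and unadjusted p from 4.28e-05 to 0.0157, while the limma adjusted p ran from 0.0495 to 0.925 and passed only without BMAL1 aKO replicate 3 or 5. The call was thus lost without any 1 of the other 8 libraries: the limma adjusted p was 0.156, 0.112 and 0.155 without BMAL1 aKO replicates 1, 2 and 4, and 0.925, 0.106, 0.182, 0.118 and 0.511 without Cre- replicates 1 to 5. The weights did not converge in the fits without Cre- replicate 1 or 5. Without both Cre- replicates 3 and 4, a setting chosen after seeing the data, the log2 fold change was 0.73 and the limma adjusted p 0.0551. Split by Ddx3y, also after seeing the data and with no test, the unweighted log2 difference of Bag3 was 0.73 among the libraries below 1 CPM of Ddx3y (n = 2 each) and 0.45 among the others (n = 3 each). Cre- replicates 3 and 4 held the highest Bag3 of their group together with the highest sum of 8 temperature and time-of-day genes. That sum was 618 and 559 CPM, against 369 to 461 CPM in the other Cre- libraries and 301 to 451 CPM in BMAL1 aKO. Its genes are Cirbp, Rbm3 and the clock genes Dbp, Nr1d1, Per1, Per2, Ciart and Arntl. Of the 8, 5 had log2 fold changes below 0, 3 above 0, and 0 were called. The lowest were Dbp (-0.53, limma adjusted p = 0.182) and Nr1d1 (-0.35, limma adjusted p = 0.154). Nr1d1 was at 70.7 to 92.3 CPM in BMAL1 aKO and 94.8 to 145 CPM in Cre-. It thus lay wholly lower in BMAL1 aKO, as did 0.382% of all genes. BMAL1 is itself part of the clock, so the deletion and the hour of sampling cannot be told apart in this sum. The part of the sum in the Bag3 value was not tested.

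**Figure D3:**
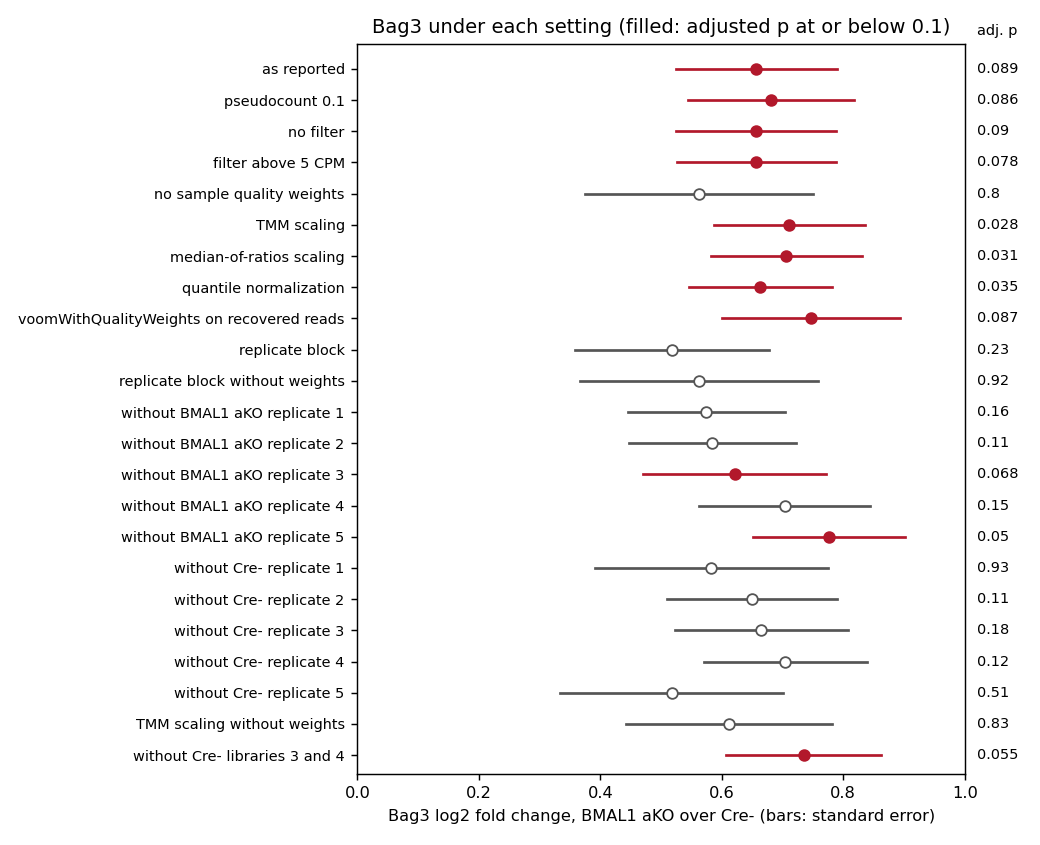
Log2 fold change of Bag3, BMAL1 aKO over Cre- (points), with its standard error (lines), under each setting of the fit, with the adjusted p at the right; red filled points are at or below 0.1. All estimates lie between 0.52 and 0.78, while the adjusted p runs from 0.0282 to 0.925. The weights did not converge without Cre- replicate 1 (0.925) or Cre- replicate 5 (0.511).

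Bag1 was next in the family. It was at 114, 81.5, 90.2, 99.8 and 86.5 CPM in BMAL1 aKO, against 80.2, 88.0, 69.0, 56.1 and 83.6 CPM in Cre-. All BMAL1 aKO libraries were above the Cre- median, with BMAL1 aKO replicates 2 and 5 below the highest Cre- library, and the difference was not called (log2 fold change 0.22, 95% interval 0.03 to 0.41, limma adjusted p = 0.247). Bag6, which guards newly made membrane proteins, was at 112 to 165 CPM in BMAL1 aKO and at 103 to 147 CPM in 3 Cre- libraries, with 283 and 220.2 CPM in Cre- replicates 3 and 4 (log2 fold change -0.13, limma adjusted p = 0.608). Bag2, Bag4 and Bag5 had log2 fold changes of 0.05, -0.0016 and -0.04.

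Per length, Bag3 was a low-level gene of this network, at 4.72 CPM per kilobase of exon averaged over the 10 libraries, against 62.9 for Bag1 and 3.63 for Hspb8. The cytosolic workhorses were far higher: 443 for Hsp90ab1, 313 for Hspa8 and 218 for Hsp90aa1. These 3 genes made up 36.1% of the CPM of the members.

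All 5 small heat shock proteins had log2 fold changes above 0 (median 0.08, against -0.04 over all genes), also with TMM scaling (0.13) and without weights (0.14), and 0 of 5 were called or had an unadjusted p below 0.05. Hspb8 (chromosome 5, 116408491 to 116422864, minus strand) was at 8.88, 9.70, 4.56, 7.05 and 5.34 CPM in BMAL1 aKO, against 6.03, 3.48, 11.4, 9.39 and 5.03 CPM in Cre-. The BMAL1 aKO values lay wholly inside the Cre- range, whose highest libraries were again replicates 3 and 4. The exact two-sided permutation p for Hspb8 was 0.849, and the 95% interval of the log2 fold change ran from -0.33 to 0.49. Its SE was 0.19 in the weighted fit and 0.30 without weights, and without Cre- replicates 3 and 4 the log2 fold change of Hspb8 was 0.27. Without BMAL1 aKO replicate 2 the log2 fold change of Hspb8 was -0.0021 and without Cre- replicate 5 it was -0.07.

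**Figure D4:**
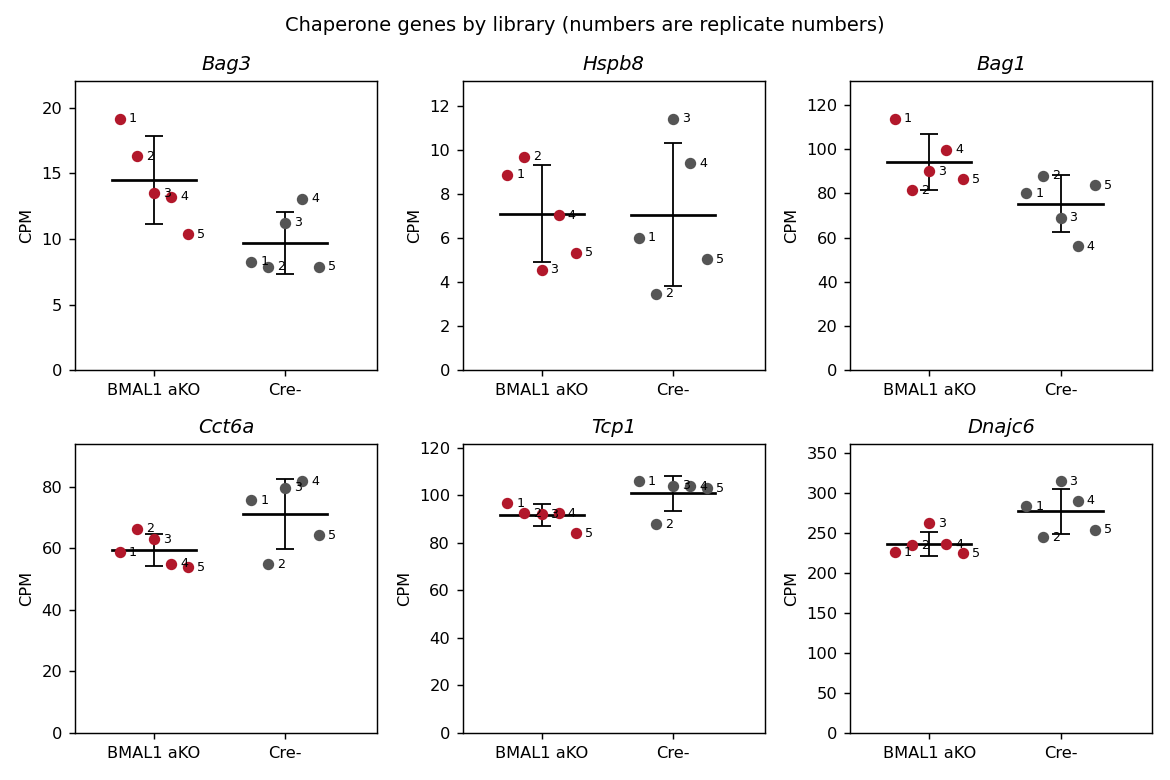
CPM of 6 chaperone genes in each BMAL1 aKO and Cre- library (points, with replicate numbers), with the group mean (horizontal line) and SD (bars, n = 5 each). Bag3 is at 10.4 to 19.2 CPM in BMAL1 aKO and 7.87 to 13.1 CPM in Cre-, and Hspb8 shows no separation of the groups.

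Hspb11 had the largest log2 fold change of the class (0.36, SE 0.19, limma adjusted p = 0.340). Its product is better known as a subunit of intraflagellar transport in cilia than as a chaperone. It was at 10.5, 9.80, 10.8, 15.5 and 17.0 CPM in BMAL1 aKO, against 10.4, 15.2, 3.03, 5.62 and 9.01 CPM in Cre-, and the lowest values were those of Cre- replicates 3 and 4. Cryab, an abundant small heat shock protein of glia and lens, was at 74.0 to 114 CPM in BMAL1 aKO and 73.0 to 122 CPM in Cre- (log2 fold change 0.14, limma adjusted p = 0.487). Hspb1 and Hspb6 had log2 fold changes of 0.06 and 0.03.

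Hsp70 genes lay below 0 in 8 of 9 cases in the weighted fit (median -0.08), against 61.6% of all genes, but in only 4 of 9 without weights (median 0.01). An unadjusted p below 0.05 (limma) was seen for 3 of them, all lower, against 10.0% of all genes. Hspa8, the constitutive cytosolic Hsp70, was at 1256, 1256, 1383, 1307 and 1321 CPM in BMAL1 aKO, against 1564, 1324, 1258, 1427 and 1346 CPM in Cre- (log2 fold change -0.19, SE 0.07, limma adjusted p = 0.211). The highest value was that of Cre- replicate 1, the library with the largest weight, and the unweighted difference of Hspa8 was -0.08. Hspa5, the Hsp70 of the endoplasmic reticulum, was alike in this: it was at 151 to 165 CPM in BMAL1 aKO and at 150.3 to 162 CPM in 4 Cre- libraries, with 188 CPM in Cre- replicate 1 (log2 fold change -0.19, limma adjusted p = 0.214). The inducible pair Hspa1a and Hspa1b, which rise in most cells after heat, were at 5.0 to 6.66 and 4.56 to 8.92 CPM in BMAL1 aKO, against 5.08 to 6.36 and 4.42 to 6.85 CPM in Cre-. Their log2 fold changes were -0.01 and 0.04, and since the copies are nearly identical, reads may be split between them.

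The Hsp110 exchange factors Hspa4, Hspa4l and Hsph1 had log2 fold changes of -0.06, -0.20 and -0.08. Hspa4l was at 211, 196, 268, 240.4 and 237 CPM in BMAL1 aKO, against 276, 269.6, 194, 245 and 269 CPM in Cre-. All BMAL1 aKO values were below the Cre- median, and the lowest value of all was that of Cre- replicate 3 (limma adjusted p = 0.246). It passed in a single setting, without BMAL1 aKO replicate 3 (limma adjusted p = 0.0999), where 844 genes were called in all, against 42 with that library.

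Hsp90 genes did not differ between the groups beyond their spread. Hsp90ab1, the constitutive cytosolic form, was at 1212 to 1557 CPM in BMAL1 aKO and 1245 to 1424 CPM in Cre-. Hsp90aa1, the inducible form, was at 722 to 975 CPM in BMAL1 aKO and 624 to 1003 CPM in Cre-. The log2 fold changes of Hsp90ab1, Hsp90aa1 and the reticulum form Hsp90b1 were -0.08, 0.02 and -0.02, with 95% intervals within 0.3 of 0. Of the adaptors that join Hsp70 and Hsp90, Stip1 was at 165, 149.8, 156, 127 and 149 CPM in BMAL1 aKO, against 177, 159, 168, 184 and 148 CPM in Cre- (log2 fold change -0.22, 95% interval -0.38 to -0.05, limma adjusted p = 0.204). Every BMAL1 aKO library was below the Cre- median for Stip1, yet Cre- replicate 5 was below 4 of them. St13 had a log2 fold change of -0.09.

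J-domain genes were the largest group, with 4 Dnaja, 9 Dnajb and 25 Dnajc members and no call among them. The median log2 fold changes were -0.03, -0.07 and -0.07. The lowest p of the group belonged to Dnajc6, which encodes auxilin, the neuronal J-protein that recruits Hspa8 to strip clathrin from synaptic vesicles. It was at 225, 234, 262, 235 and 225 CPM in BMAL1 aKO, against 283, 244, 314, 290.0 and 254 CPM in Cre-. All 5 BMAL1 aKO libraries were below the Cre- median and BMAL1 aKO replicate 3 was the only one above any Cre- library (log2 fold change -0.21, SE 0.06, limma adjusted p = 0.183). Dnajc6 was among the 844 genes called without that library (log2 fold change -0.27, limma adjusted p = 0.0677). Dnajc5, the cysteine string protein of synaptic vesicles and a close functional neighbour, was at 219.8 to 251 CPM in BMAL1 aKO and 223 to 335 CPM in Cre- (log2 fold change -0.12, limma adjusted p = 0.353).

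Dnajc30, a mitochondrial J-protein, lay on the other side. It was at 15.7, 17.7, 19.5, 18 and 19.2 CPM in BMAL1 aKO, against 15.2, 16.2, 14.6, 18.3 and 15.6 CPM in Cre- (log2 fold change 0.24, limma adjusted p = 0.183), with 436 bases of its exons opposite Bud23. Dnajc14 had the most negative estimate among J-domain genes (log2 fold change -0.30, limma adjusted p = 0.194), at 24.9 to 34.6 CPM in BMAL1 aKO and 24.8 to 47.0 CPM in Cre-. Among Dnajb genes, Dnajb5 varied most between libraries: it was at 63.2 to 119 CPM in BMAL1 aKO and 76.7 to 106 CPM in 3 Cre- libraries, with 198 and 185 CPM in Cre- replicates 3 and 4 (limma adjusted p = 0.627). Dnajb6, a suppressor of polyglutamine aggregation, had a log2 fold change of 0.04. The Dnajb1 gene, whose product feeds Hsp70 in the heat shock response, was at 23.2 to 27.3 CPM in BMAL1 aKO and 21.8 to 40.8 CPM in Cre-, again with the top values in Cre- replicates 3 and 4 (limma adjusted p = 0.632).

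Summed over the 9 Dnajb genes, the level was 665 to 701 CPM in BMAL1 aKO and 702 to 787 CPM in Cre-, so the sums did not overlap in the deposited CPM. With TMM scaling they did, at 666 to 719 CPM in BMAL1 aKO and 647 to 761 CPM in Cre-. The sum of all 79 members was 9098 to 9914 CPM in BMAL1 aKO and 9317 to 10463 CPM in Cre-. Such sums follow the most abundant genes and were not tested.

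Subunits of the CCT ring lay below 0 in 6 of 8 cases, against 61.6% of all genes in the weighted fit. The count was the same with TMM scaling and without weights. Their median log2 fold change was -0.09 (-0.06 with TMM scaling), against -0.04 over all genes. Cct6a, the zeta subunit, was at 58.7, 66.3, 62.8, 55.0 and 53.8 CPM in BMAL1 aKO, against 75.6, 54.7, 79.7, 81.6 and 64.1 CPM in Cre-. It had the lowest adjusted p after Bag3 (log2 fold change -0.31, SE 0.09, limma adjusted p = 0.176), and Cre- replicate 2 was the library that brought the groups to overlap most. Tcp1, the alpha subunit, was at 96.7, 92.4, 92.1, 92.5 and 84.1 CPM in BMAL1 aKO, against 106, 87.9, 104, 104 and 103 CPM in Cre- (log2 fold change -0.20, limma adjusted p = 0.182). For Tcp1, 4 of the 5 Cre- libraries were above every BMAL1 aKO library and replicate 2 was not. Exons of Cct6a and Tcp1 overlap genes on the other strand over 452 bases (Psph) and 712 bases (Mrpl18 and Acat3), so reads of these neighbours cannot be told apart there. The remaining subunits had log2 fold changes from -0.16 (Cct7) to 0.04 (Cct2).

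The genes of the mitochondrial chaperonin pair lie head to head, and Hspe1 and Hspd1 overlap over 112 exon bases. Hspe1 (HSP10) was at 41.3, 43.9, 46.2, 59.2 and 64.7 CPM in BMAL1 aKO, against 44.2, 55.0, 30.5, 34.5 and 39.7 CPM in Cre- (log2 fold change 0.26, limma adjusted p = 0.289). Hspd1 (HSP60) had a log2 fold change of 0.00 with a 95% interval of -0.14 to 0.14, at 115 to 136 CPM in BMAL1 aKO and 102 to 143 CPM in Cre-. The RefSeq windows of both genes hold the same 3 overlapping heat shock pairs, of which the central one is shown on the Hspe1 strand because both windows share it:
Hspe1 and Hspd1, chr1:55088053-55088082, plus strand: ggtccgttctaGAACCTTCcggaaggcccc
Hspd1-ps3, an Hspd1 pseudogene that the symbol pattern also found, was at 1.86 to 6.05 CPM in BMAL1 aKO and 2.24 to 3.73 CPM in Cre-, and its reads may come from Hspd1.

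The transcription factors of the heat shock response were near 0. Hsf1 was at 27.4 to 35.8 CPM in BMAL1 aKO and 26.7 to 42.9 CPM in Cre- (log2 fold change -0.10, limma adjusted p = 0.554), and Hsf2 at 20.6 to 23.7 CPM in BMAL1 aKO and 18.3 to 24.9 CPM in Cre- (log2 fold change -0.12, limma adjusted p = 0.438). Of 16 members that heat or proteotoxic stress is known to induce, 8 lay above 0 and 8 below (median -0.0045), and Bag3 was the 1 called. The 95% intervals of Hspa1a, Hspa1b, Dnajb1 and Hsph1 all include 0, and the difference between Bag3 and these genes was not tested.

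Of 69 genes that work beside the members, 65 were measured, 1 was called higher in BMAL1 aKO and 0 lower, against 0.334% of all genes called. The lists of these genes were chosen with earlier results of these data known, so the count is a description and not independent of those results. At an unadjusted p below 0.05, limma gave 4 of the 65 higher and 10 lower, against 6.82% and 10.0% of all genes. The called gene was Wwtr1, which encodes TAZ, a coactivator of the Hippo pathway that was listed among the partners of BAG3. It was at 23.9, 27.9, 22.4, 26.3 and 20.2 CPM in BMAL1 aKO, against 17.5, 14.9, 22, 18.8 and 17.6 CPM in Cre- (log2 fold change 0.42, SE 0.09, limma adjusted p = 0.0918). All BMAL1 aKO libraries lay above the Cre- median, and only BMAL1 aKO replicate 5 lay below a Cre- library. Like that of Bag3, the Wwtr1 call was lost without weights (log2 fold change 0.40, limma adjusted p = 0.803). The autophagy receptor Sqstm1 (p62) had a log2 fold change of -0.09 (limma adjusted p = 0.592), and the ubiquitin ligase Stub1 (CHIP), which works with Hsp70 and BAG3, of -0.33 (limma adjusted p = 0.183).

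By partner list, 20 of the Hsp90 co-chaperones, 8 genes of Hsp70 nucleotide exchange, 6 prefoldin subunits, 12 genes of folding in the endoplasmic reticulum, 7 of mitochondrial protein quality control and 4 regulators of HSF were measured, with no call. Prefoldin, which hands actin and tubulin to CCT, had 5 of 6 log2 fold changes above 0 (median 0.06), and Pfdn1 was its highest at 0.23 (limma adjusted p = 0.200). The reticulum genes had 10 of 12 below 0 (median -0.10), with Pdia6 lowest at -0.26 (limma adjusted p = 0.193), against 61.6% of all genes below 0. An unadjusted p below 0.05 was seen for 3 of those 12, against 16.8% of all genes, for 1 with TMM scaling and for 0 without weights (limma). Hyou1, the Hsp110 of the reticulum, had the most negative estimate of the partners (-0.35, limma adjusted p = 0.235), with its highest CPM, 119 and 92.6, in Cre- replicates 3 and 4.

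Members varied less in BMAL1 aKO than in Cre- libraries. The median SD of log2(CPM + 0.5) over members was 0.14 in BMAL1 aKO and 0.23 in Cre-, and over all genes it was 0.17 in BMAL1 aKO and 0.25 in Cre-. The SD was larger in Cre- for 61 of 79 members, against 74.9% of all genes. Bag3 was an exception, with SDs of 0.32 in both groups. The p-values measure the spread between mice of these groups, with the libraries weighted by how well each fits its group.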

How the data were processed

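CPM per gene and library are as the authors deposited them, from paired reads aligned with STAR 2.5.1a to GRCm38 (Ensembl release 76) and counted with featureCounts 1.4.6-p5. The deposited CPM carry no TMM scaling, and the library kit does not mark strand. All 10 libraries were used: the study's text counts fewer BMAL1 aKO mice than the labels, so each library was also left out in turn. The 12573 of 12575 genes that exceeded 1 CPM in 4 or more libraries were tested. The linear model was fitted to log2(CPM + 0.5) by limma 3.58.1 (R 4.3.3), using arrayWeights for library weights, a variance trend and Benjamini-Hochberg adjustment at 0.1, and the fit was tested on simulated data. Fold changes are on this scale and understate changes of low genes. No result of the test on simulated data is given here, so nothing follows from it about the library weights. The Bag3 call rested on those weights. The members, classes and gene lists were chosen with earlier results of these data known. Genes named were Bag3, Hspb8, called members, the 2 members of lowest p and the 2 of highest mean CPM in each class, and called partners. Others (the inducible genes, those with a printed start region, Dnajb5, Dnajc14, and uncalled partners and markers) were chosen after their values were seen. Alternatives were another pseudocount, filter, scaling or threshold, no weights, voomWithQualityWeights on reads recovered from the CPM (100% of values whole within 0.01 read), and a replicate block. Positions and exon lengths are from GENCODE M21 (GRCm38), which held 1 gene for each member and 12550 of the 12575 names.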

Additional observations from a re-analysis of the deposited data

Results flagged for a closer look

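Among 38 named genes in the 2 groups of 5, single libraries stood far from the rest of their group in 4 cases of 76 examined, and chance gives about 1 in 20. In each, the gap to the nearest library made up most of the group's range. Tcp1 was at 87.9 CPM in Cre- replicate 2, against 103 to 106 CPM in the other Cre- libraries. Cryab was at 74.0 CPM in BMAL1 aKO replicate 2, against 103 to 114 CPM in the other BMAL1 aKO libraries. Hsph1 was at 249 CPM in BMAL1 aKO replicate 2, against 318 to 345 CPM in the others of that group. Dnajb14, a J-protein of the endoplasmic reticulum membrane, was at 148 CPM in Cre- replicate 3, against 183 to 191 CPM in the others.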

How the results depend on the processing

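Bag3 stayed above 0 in every setting run, and its call did not. Calls over all genes and over members numbered 42 and 1 as reported. They were 4 and 0 without sample quality weights (Bag3 0.56), 7 and 0 with the replicate block (Bag3 0.52), 2 and 0 with the replicate block without weights (Bag3 0.56), and 20 and 0 at a threshold of 0.05 (Bag3 0.66). TMM scaling gave 68 and 1, quantile normalization 65 and 1, voomWithQualityWeights 29 and 1. TMM scaling without weights, chosen after seeing the data, gave 4 and 0 (Bag3 0.61). The cause of these shifts was not tested. Leaving out 1 library gave 1 to 844 genes and 0 to 4 members, with Bag3 at 0.52 to 0.78 and Hspb8 at -0.068 (without Cre- replicate 5) and -0.0021 (without BMAL1 aKO replicate 2) to 0.22. The 844 came without BMAL1 aKO replicate 3, where Bag3, Cct6a, Dnajc6 and Hspa4l were called. The weights did not converge without Cre- replicate 1 or 5. Replicate numbers did not pair the libraries (r from -0.63 to 0.36 over 5 pairs, own number best for 0), so the replicate block says little. Of 36 other named genes, 32 were never called in any setting run, 19 changed sign in at least 1 setting, and Wwtr1 lost its call in 14. The count tests planned with edgeR and DESeq2 were not run.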
